A study of Rattus norvegicus with 8 samples.

Results

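The pentose phosphate pathway and its companion NADPH suppliers were examined in rat liver through 8 genes: Pgls, Pgd, Rpia, Rpe, Taldo1, Tkt, Me1 and Idh1. Probe sets were taken as members where the array files gave one of these symbols or the gene's current identifier. This gave 8 probe sets for 7 genes, out of 26208 probe sets standing for 24137 genes. No probe set matched Pgd, so its expression is not analysed here and only its promoter is read below. The enzyme of the pathway's first step is not analysed either.

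Total liver RNA came from 4 male F344/N rats dosed with thioacetamide, a hepatotoxic compound, over 28 days, and from 4 male F344/N rats without treatment, which had tap water and basal diet. Gavage is the labelled route in both groups. Neither dose nor age is given in the sources used. RNA was hybridised to 1-colour NimbleGen arrays, 1 array per rat, and the values are log2 expression levels made with RMA (a difference of 1 is a 2-fold change).

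The pathway works in the cytosol. Its oxidative branch turns glucose 6-phosphate into ribulose 5-phosphate and reduces NADP+ to NADPH on the way, and its non-oxidative branch converts pentoses into ribose 5-phosphate for nucleotides or back into sugars of glycolysis. Cytosolic malic enzyme and isocitrate dehydrogenase make NADPH outside the pathway. In liver NADPH feeds fatty acid and cholesterol synthesis, and it keeps glutathione and thioredoxin reduced during detoxication.

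The arrays separated by group along the first principal component (51.7% of the variance), while control replicates 2 and 3 and thioacetamide replicate 4 stood apart from the others of their group along the second (19.8%), with control replicate 2 the least far. Background was taken per array as the 95th percentile of 1312 olfactory receptor probe sets, genes of the sense of smell. It lay between 6.53 and 6.93 in treated rats and between 6.96 and 7.88 in controls, where control replicate 3 was the highest. Of 6 hepatocyte markers, 0 changed in limma (0 had an unadjusted p under 0.05), and their summed log2 level was 18.14 to 18.23 in treated livers and 18.13 to 18.22 in controls. Their group means of 15.33 to 15.73 lie near the top of the scale, where a difference can be compressed. The highest value of each array was 15.89 to 15.98. These markers therefore do not show that hepatocyte content was unchanged. Of the markers of other cells, 3 of 6 bile duct and progenitor genes and 4 of 4 proliferation genes rose, 4 of 7 macrophage genes fell, and 0 of 5 endothelial genes changed (2 had an unadjusted p under 0.05). Over all 26208 probe sets, 9.46% were called higher and 5.14% lower. The summed log2 level of the bile duct list was 12.94 to 13.40 in treated livers and 10.73 to 12.41 in controls, that of the proliferation list 11.67 to 11.89 against 9.81 to 10.73, and that of the macrophage list 13.95 to 14.60 against 14.64 to 15.40. Of 6 T and NK cell genes 2 fell, with Cd3e and Klrd1 at or under background on all arrays (summed level 9.36 to 9.84 in treated livers and 10.46 to 11.26 in controls), and of 6 stellate cell genes 3 rose (12.65 to 13.55 and 12.16 to 13.51). Among the stellate cell rises, Des was above background on 2 treated and 0 control arrays. Acta2 and Pdgfrb differed by -0.71 and -0.46 and did not pass. In the bile duct list Krt19, Krt7 and Sox9 differed by 0.08, 0.23 and 1.26 and did not pass. The macrophage genes that did not pass were Cd68, Cd163 and Adgre1, with differences of -0.16, -0.06 and -0.80. Cygb, and Cd24 and Cdk1 of the bile duct and proliferation lists, were above background on 1 control array each. With 1 array left out, 1 to 4 macrophage, 1 to 2 T and NK cell and 1 to 3 stellate cell genes passed. The part of these shifts in the results below was not tested, and in whole liver fewer cells of a type cannot be told apart from less RNA per cell.

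Of the 7 measured genes, 1 changed: Pgls fell, and none rose. That is 14.3%, close to the 14.6% of all 26208 probe sets that changed in this comparison (limma, adjusted p under 0.05), of which 9.46% were higher and 5.14% lower. The called probe sets were higher in 64.8% of cases, against 53.5% under cyclic loess scaling and 57.4% under median centring. Rpia and Idh1 had positive differences that missed the threshold, with unadjusted p-values of 0.0113 and 0.0195 in limma. With Pgls, 3 of the 7 genes had an unadjusted p under 0.05, as did 29.5% of all probe sets. The other 4 genes had smaller positive differences. The median difference of the 7 genes was 0.19, and that of all probe sets was -0.03. The treated and control values did not overlap in 3 of the 7 genes (Pgls, Rpe and Idh1), against 21.5% of all probe sets; in Rpe and Idh1 the treated values were the higher ones, as in 13.9% of all.

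**Figure D1:**
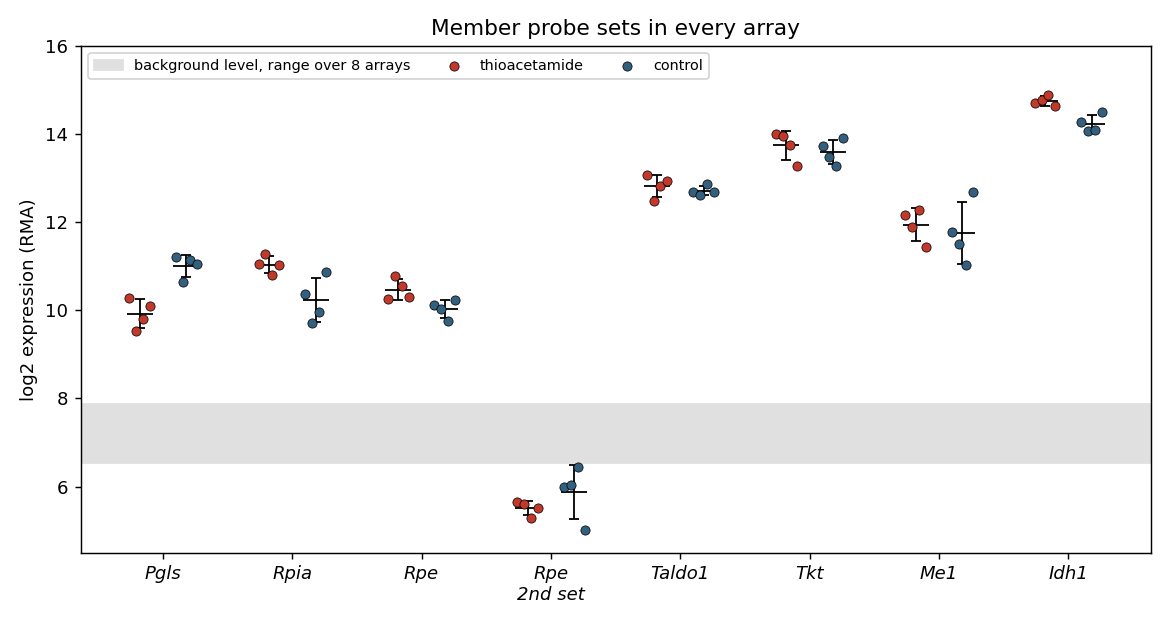
Log2 expression (RMA) of the 8 member probe sets in each of 4 thioacetamide arrays (red) and 4 control arrays (blue), with the mean and SD of each group as black bars and the range of the background level over the arrays as a grey band. The 4 treated Pgls values lie below the 4 control values, the second Rpe probe set lies under the background, and the Me1 controls spread from 11.03 to 12.69.

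Pgls encodes 6-phosphogluconolactonase, which opens the lactone made in the first step of the oxidative branch. Its log2 level was 10.27, 9.53, 9.81 and 10.09 in thioacetamide replicates 1 to 4, against 11.20, 10.65, 11.14 and 11.05 in control replicates 1 to 4. The groups did not overlap, and replicate 2 was the lowest in each. The means were 9.93 ± 0.33 in treated livers and 11.01 ± 0.25 in controls (SD, n = 4 each). Pgls fell 2.12-fold, with a log2 difference of -1.09 ± 0.23 (standard error) and a 95% interval of -1.59 to -0.58 (limma, adjusted p = 0.0104). The call held in each of the 8 fits that left out 1 array, with differences between -1.21 and -0.95 and adjusted p-values up to 0.0384.

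The genes whose values ran most like those of Pgls over the 8 arrays were a mitochondrial ribosomal protein gene listed as MRP-S28 (r = 0.988), Naxe (r = 0.986), an epimerase that repairs damaged NADH and NADPH, and Ubd (r = 0.986), a ubiquitin-like protein. These were the highest among 9536 genes above background on all arrays. The 8 points share 2 groups of rats, so the values describe these arrays and carry no test.

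The ribulose 5-phosphate made by the oxidative branch has 2 exits. Rpia encodes ribose 5-phosphate isomerase, which leads it to ribose 5-phosphate. Rpia levels were 11.05, 11.27, 10.81 and 11.02 in treated livers and 10.38, 9.71, 9.96 and 10.86 in controls. Control replicate 4 lay inside the treated range and the other 3 controls lay below it. The means were 11.04 ± 0.19 in treated livers and 10.23 ± 0.50 in controls, a log2 difference of 0.81 ± 0.26 (95% interval 0.23 to 1.39, adjusted p = 0.0664 in limma), which did not pass. The difference passed without control replicate 4 (1.02, adjusted p = 0.0203), with the filter on dim probe sets (0.81, adjusted p = 0.0411) and with the trend and robust variance estimate (0.81, adjusted p = 0.0408), while it was 0.43 (adjusted p = 0.295) without the 3 arrays that stood apart.

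Rpe encodes ribulose 5-phosphate 3-epimerase, the entry to the non-oxidative branch. The probe set matched by gene identifier gave 10.26, 10.77, 10.54 and 10.30 in treated livers and 10.11, 10.03, 9.75 and 10.23 in controls. The groups were separated by a narrow gap, between the treated replicate 1 and the control replicate 4. The log2 difference was 0.44 ± 0.20 (95% interval -0.01 to 0.89, adjusted p = 0.175 in limma) and did not pass. A second probe set carries the symbol Rpe in the files but is described there as similar to CG18437-PA, and its gene identifier is not in the RefSeq table used for names. It stayed under background on all 8 arrays, with 5.28 to 5.65 in treated livers and 5.02 to 6.44 in controls, so it gives no level for the epimerase.

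**Figure D2:**
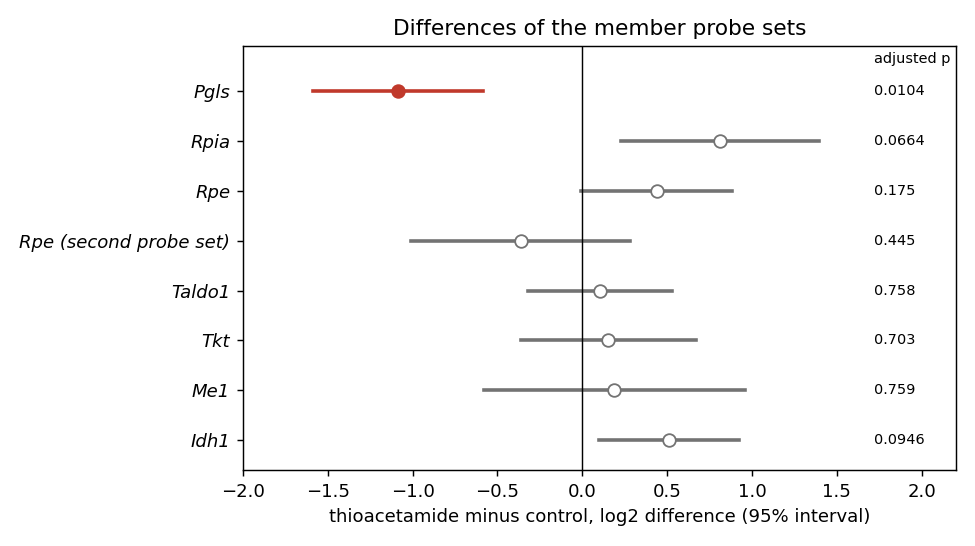
Thioacetamide minus control log2 difference (point) with its 95% interval (line) for each member probe set, from the limma fit over all probe sets, with the adjusted p at the right; the filled red point passed the threshold of 0.05. Pgls lies at -1.09, the intervals of Rpia and Idh1 lie above 0 without passing the adjusted threshold, and the Me1 interval is the widest of the 8.

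Taldo1 and Tkt encode transaldolase and transketolase, which exchange short carbon units between sugar phosphates in the non-oxidative branch. Taldo1 levels were 13.06, 12.49, 12.81 and 12.93 in treated livers and 12.69, 12.62, 12.87 and 12.69 in controls. The control values lay inside the treated range, and the log2 difference was 0.10 ± 0.19 (95% interval -0.32 to 0.53, adjusted p = 0.758 in limma). Tkt levels were 14.002, 13.96, 13.76 and 13.28 in treated livers and 13.74, 13.48, 13.28 and 13.90 in controls. The groups overlapped over most of their range, with treated replicate 4 as low as control replicate 3. The log2 difference of Tkt was 0.15 ± 0.23 (95% interval -0.36 to 0.67, adjusted p = 0.703). These intervals leave out a 2-fold change for both genes, but not a smaller one.

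Me1 encodes cytosolic malic enzyme, which makes NADPH from malate and is classed in rodent liver with the lipogenic enzymes and also with the targets of the stress regulator Nrf2. Its levels were 12.16, 11.89, 12.28 and 11.43 in treated livers and 11.77, 11.51, 11.03 and 12.69 in controls. The highest and the lowest of all 8 values were both controls. The means were 11.94 ± 0.38 in treated livers and 11.75 ± 0.70 in controls, with a log2 difference of 0.19 ± 0.35 (95% interval -0.58 to 0.96, adjusted p = 0.759 in limma). The difference turned to -0.05 without control replicate 3, and was 0.50 without control replicate 4.

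Idh1 encodes cytosolic NADP-dependent isocitrate dehydrogenase. Its levels were 14.70, 14.77, 14.89 and 14.63 in treated livers and 14.28, 14.06, 14.10 and 14.51 in controls, so every treated value lay above every control. The means were 14.75 ± 0.11 in treated livers and 14.24 ± 0.21 in controls, a ratio of 1.43 (log2 difference 0.51 ± 0.18, 95% interval 0.10 to 0.92, adjusted p = 0.0946 in limma), which did not pass. The difference passed with the trend and robust variance estimate (adjusted p = 0.0132) and with the filter on dim probe sets (adjusted p = 0.0449). Idh1 lies in the upper part of the scale, where the highest value of each array was 15.89 to 15.98 and a difference can be compressed.

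**Figure D3:**
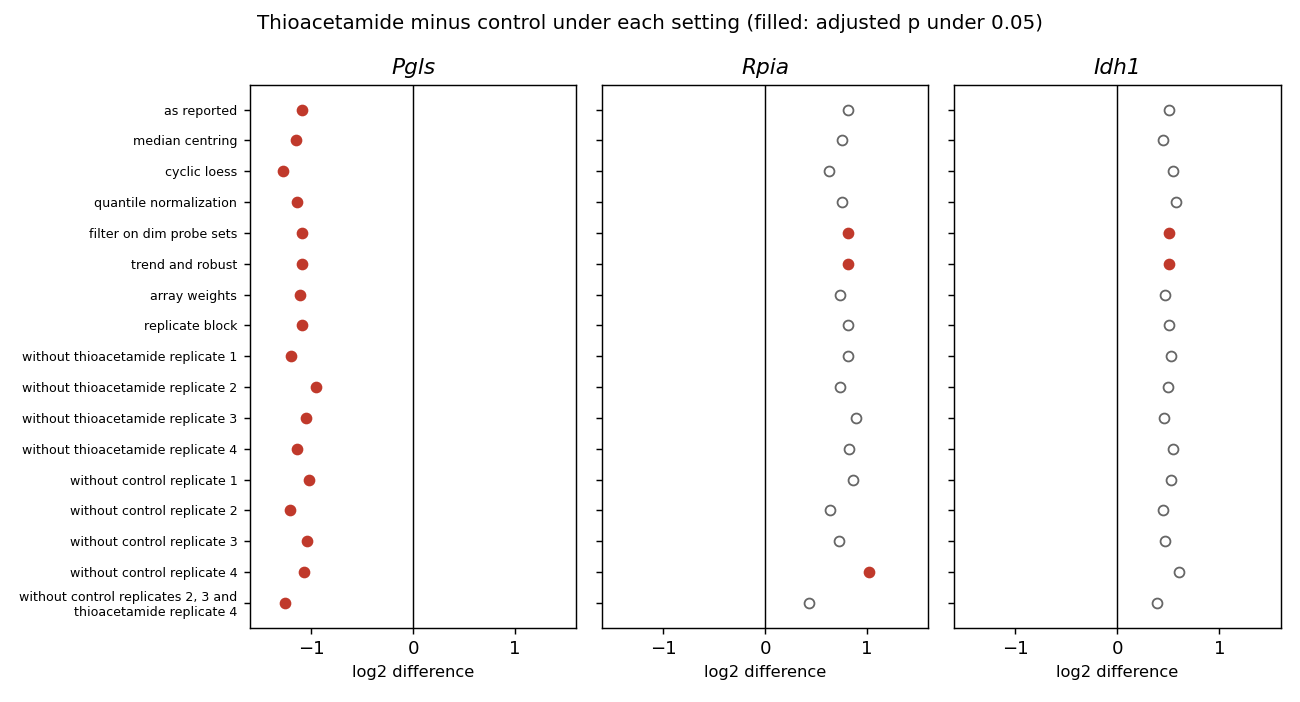
Thioacetamide minus control log2 difference of Pgls, Rpia and Idh1 under the reported setting and 16 others, with filled red points where the adjusted p was under 0.05. Pgls is filled throughout, between -1.28 and -0.95, Rpia is filled in 3 of the alternatives and Idh1 in 2.

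The order of the arrays inside a group differed between the members. Control replicate 4 was the highest control in 5 of the 7 genes (Rpia, Rpe, Tkt, Me1 and Idh1) and was so in 26.1% of all probe sets. Control replicate 2 was the lowest control in 4 of the 7 and in 22.2% of all probe sets, and control replicate 3 was the lowest in the other 3 and in 33.8% of all. Thioacetamide replicate 4 was the lowest treated array in 3 of the 7 (32.8% of all probe sets) and the highest in 0 (29.9% of all). The members are genes of the same 8 RNA samples, so these counts describe the arrays.

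Me1 and Idh1 were the only members whose promoter window held the core of the antioxidant response element, the DNA motif bound by Nrf2. The window runs from 250 bases before to 50 bases after the gene start in RefSeq (GRCr8), and 7 of the 8 genes had one (all but Pgls). All motifs were searched on both strands. The core is TGACNNNGC. The E-box, the site of carbohydrate and circadian regulators, was searched as CACGTG. The GC box, a site of general promoter factors, was searched as GGGCGG, and the box named after its own letters as CCAAT. In Me1 it read TGACTCAGC, from base -167 to -159 before the start, and in Idh1 TGACCCTGC, from -83 to -75. TGACNNNGC stood in 2 of the 7 member promoters and in 12.1% of all 33469 promoter windows. The GC box stood in 6 of 7 and in 33.1% of all, the CCAAT box in 3 of 7 (Taldo1, Pgd and Rpe) and in 37.5% of all, and the E-box in 0 of 7 and in 6.4% of all. A match is a stretch of letters and shows no binding. The 250 bases before the start are shown for the 2 genes with the motif, for Rpia, the member with the largest positive difference, and for Tkt, which held none of the 4 motifs. They are written 5′ to 3′ along the gene strand, and capitals mark matches to any of the motifs on either strand. Me1 lies at chr8:96540245-96540494 (minus strand), Idh1 at chr9:74049475-74049724 (minus strand), Rpia at chr4:104307719-104307968 (minus strand) and Tkt at chr16:5729982-5730231 (plus strand). The GC box of Rpia crosses the start and is therefore not in the bases shown.
Me1: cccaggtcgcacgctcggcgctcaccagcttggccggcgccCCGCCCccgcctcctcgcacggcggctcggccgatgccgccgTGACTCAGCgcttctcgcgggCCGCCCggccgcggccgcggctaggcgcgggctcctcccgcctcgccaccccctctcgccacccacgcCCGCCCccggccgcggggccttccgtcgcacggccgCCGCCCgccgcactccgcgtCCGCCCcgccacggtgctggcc
Idh1: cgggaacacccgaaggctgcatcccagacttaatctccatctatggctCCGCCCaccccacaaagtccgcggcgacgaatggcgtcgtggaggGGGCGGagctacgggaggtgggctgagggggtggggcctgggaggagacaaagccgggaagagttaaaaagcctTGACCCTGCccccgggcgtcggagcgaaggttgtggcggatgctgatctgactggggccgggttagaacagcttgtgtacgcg
Rpia: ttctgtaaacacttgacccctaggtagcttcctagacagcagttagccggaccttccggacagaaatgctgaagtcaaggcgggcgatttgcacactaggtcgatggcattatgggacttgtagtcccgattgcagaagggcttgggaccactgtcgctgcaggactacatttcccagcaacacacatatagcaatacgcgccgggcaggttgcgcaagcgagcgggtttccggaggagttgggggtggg
Tkt: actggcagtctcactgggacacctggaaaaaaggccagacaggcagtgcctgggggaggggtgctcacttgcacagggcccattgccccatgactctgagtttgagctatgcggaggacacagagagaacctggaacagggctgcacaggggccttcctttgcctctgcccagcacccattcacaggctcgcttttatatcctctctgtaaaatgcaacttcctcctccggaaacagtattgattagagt

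Genes around the measured pathway enzymes were read from lists that leave out the members. Of 11 other pentose phosphate and ribose genes, 4 fell and 2 rose, with a median log2 difference of -0.36. The counts of this and the following lists stand beside 9.46% of all probe sets called higher and 5.14% lower. H6pd, which runs the oxidative steps inside the endoplasmic reticulum and makes NADPH there, had 10.33, 9.88, 9.95 and 9.55 in treated livers and 11.36, 10.89, 11.22 and 11.39 in controls, and fell 2.44-fold (-1.29 ± 0.22, adjusted p = 0.00403 in limma). Shpk, the kinase that makes sedoheptulose 7-phosphate, fell 2.45-fold (-1.29 ± 0.28, adjusted p = 0.0127), and Rbks, ribokinase, fell too (-1.0 ± 0.21, adjusted p = 0.00999). Rgn, a gluconolactonase also known as regucalcin, fell 1.51-fold (adjusted p = 0.0449), a call lost in all 8 fits with 1 array left out.

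The genes of this list that rose were Prps2 and Pgm2. Prps2, a synthetase that turns ribose 5-phosphate into the precursor of nucleotides, averaged 9.23 ± 0.23 in treated livers and 8.01 ± 0.72 in controls, with 3 of 4 control arrays above background, and rose 2.33-fold (1.22 ± 0.33, adjusted p = 0.0364). Pgm2, which interconverts pentose phosphates, rose 1.63-fold (0.70 ± 0.16, adjusted p = 0.0176), with means of 10.17 in treated livers and 9.46 in controls. Prps2 lost its call without thioacetamide replicate 1, 2 or 3 or control replicate 2, and Pgm2 lost its call without thioacetamide replicate 2 or 3. Scaling also ended calls: that of Prps2 under median centring (adjusted p = 0.0532) and quantile normalization (adjusted p = 0.051), and that of Pgm2 under cyclic loess (0.48, adjusted p = 0.0867). The list then held 3 falls and 0 rises without thioacetamide replicate 2, without replicate 3, and without the 3 arrays that stood apart.

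In the list of other NADPH and NADP suppliers, the only called rise was that of Me2, an enzyme that works mainly with NAD. Of 7 listed genes, 3 fell and 1 rose (median log2 difference -0.36). Me3, the mitochondrial NADP-dependent malic enzyme, had 6.91, 6.75, 7.03 and 7.02 in treated livers, just above background, and 10.14, 8.86, 9.10 and 9.86 in controls, and fell 5.90-fold (-2.56 ± 0.29, adjusted p = 0.000419 in limma). A second Me3 probe set was above background on 0 treated arrays and 1 control array and did not pass (adjusted p = 0.381). Me2, the mitochondrial malic enzyme that works mainly with NAD, had 10.48, 10.85, 10.86 and 10.995 in treated livers and 8.91, 8.75, 9.16 and 9.06 in controls, and rose 3.55-fold (1.83 ± 0.19, adjusted p = 0.000319). The 3 malic enzyme genes thus took 3 courses in the same livers: Me2 rose, Me3 fell, and Me1 did not pass the test. Aldh1l1, a folate enzyme that yields NADPH, fell 2.73-fold (-1.45 ± 0.24, adjusted p = 0.00368). Idh2, the mitochondrial relative of Idh1, fell 1.80-fold (-0.85 ± 0.24, adjusted p = 0.0423), a call lost in 7 of the 8 fits with 1 array left out (all but the fit without control replicate 1). Nnt, Nadk2 and Mthfd1 differed by -0.36 ± 0.28, 0.06 ± 0.23 and 0.33 ± 0.20 and did not pass.

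Among 5 NAD-linked relatives, Idh3a, a subunit of the mitochondrial NAD-dependent isocitrate dehydrogenase, rose 1.73-fold (0.79 ± 0.18, adjusted p = 0.0173 in limma), a call lost without thioacetamide replicate 2 (adjusted p = 0.0621). Idh3b, Idh3g, Mdh1 and Mdh2 differed by 0.24, -0.26, -0.02 and 0.11 and did not pass. Of 5 genes of the citrate and pyruvate cycle around malic enzyme, 0 changed (limma; 1 at an unadjusted p under 0.05). The largest differences there were -0.47 ± 0.19 for Mpc1, a subunit of the mitochondrial pyruvate carrier (adjusted p = 0.123; 0.0477 with the trend and robust variance estimate), and -0.44 ± 0.25 for Slc25a1, the citrate carrier (adjusted p = 0.268).

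**Figure D4:**
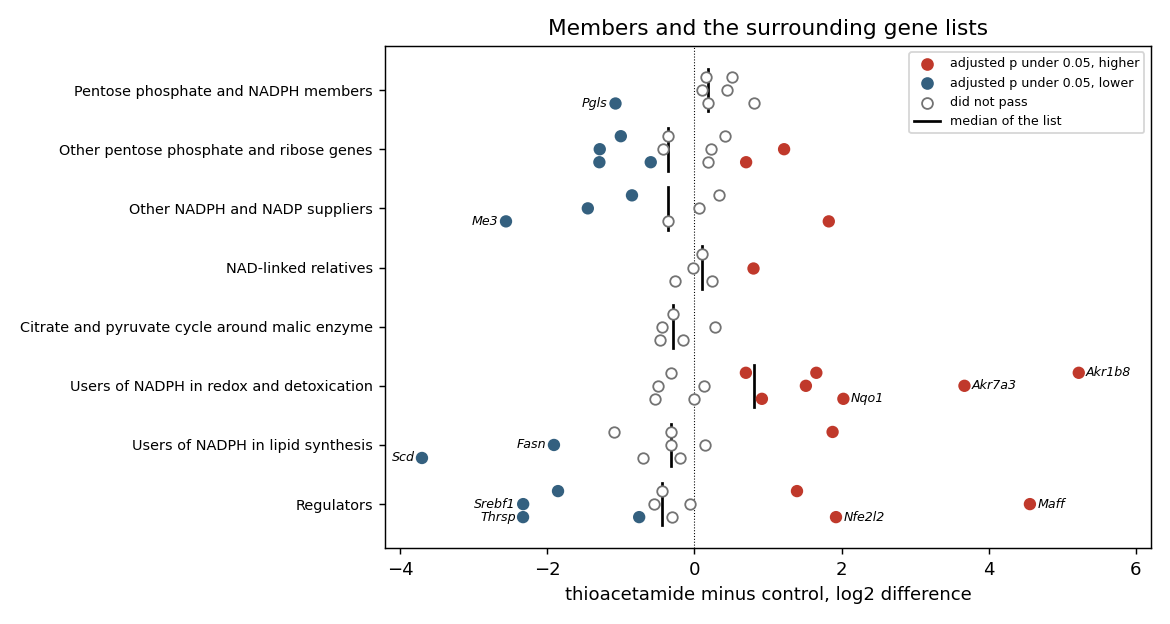
Thioacetamide minus control log2 difference of the 7 member genes (top) and of the genes of 7 surrounding lists, 1 point per gene, filled where the adjusted p was under 0.05, with the list median as a black bar. The members lie between -1.09 and 0.81 with 1 filled point, whereas the users of NADPH in detoxication reach 5.22 (Akr1b8). Maff and Tigar are drawn at their measured differences although their controls were at or under background.

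Among the enzymes that spend NADPH, those of redox balance and detoxication mostly rose. Of 12 such genes, 7 rose and 0 fell (median log2 difference 0.81), with 1 fall under cyclic loess and 5 to 7 genes changed with 1 array left out. Akr1b8, an aldo-keto reductase, averaged 14.44 ± 0.38 in treated livers and 9.21 ± 0.75 in controls and rose 37.4-fold (5.22 ± 0.36, adjusted p = 3.33e-05 in limma). Akr7a3, an aldehyde reductase, rose 12.7-fold (3.67 ± 0.18, adjusted p = 4.2e-06), and Nqo1, a quinone reductase, rose 4.07-fold (2.03 ± 0.33, adjusted p = 0.0029), with 3 of 4 control arrays above background. Txnrd1, cytosolic thioredoxin reductase, rose 3.16-fold (1.66 ± 0.22) and Cbr1, a carbonyl reductase, 2.86-fold (1.52 ± 0.25). Gsr, glutathione reductase, rose 1.89-fold (0.92 ± 0.25, adjusted p = 0.0343) and Akr1a1 1.62-fold (0.70 ± 0.19, adjusted p = 0.0341). Gsr lost its call in 6 of the 8 fits with 1 array left out, all but those without thioacetamide replicate 4 and control replicate 4, and Akr1a1 lost it in 6, all but those without thioacetamide replicate 4 and control replicate 3. Both also lost their calls under median centring (Gsr 0.86, adjusted p = 0.0545; Akr1a1 0.64, adjusted p = 0.0573), which left 5 of the 12 genes changed. Por, which passes electrons from NADPH to cytochrome P450, differed by 0.13 ± 0.19 (adjusted p = 0.694).

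Lipid synthesis is the other large use of NADPH in liver. A list of 9 of its genes gave 2 falls and 1 rise (median log2 difference -0.32). The list includes desaturases, such as Scd, that do not use NADPH directly. Scd, stearoyl-CoA desaturase, fell 13.0-fold (-3.70 ± 0.42, adjusted p = 0.000413 in limma) and Fasn, fatty acid synthase, 3.76-fold (-1.91 ± 0.47, adjusted p = 0.0237). The Fasn call was lost without thioacetamide replicate 1 (adjusted p = 0.0558), replicate 2 (0.0823) or replicate 4 (0.0544). Sqle, squalene epoxidase of cholesterol synthesis, rose 3.68-fold (1.88 ± 0.30, adjusted p = 0.00262).

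Genes listed as regulators around Me1 and its neighbours changed in both directions, and their action on Me1 was not tested. Of 11 listed regulators, 4 fell and 3 rose (median log2 difference -0.43). Nfe2l2, which encodes Nrf2, had 13.13, 13.39, 13.43 and 13.39 in treated livers and 11.84, 11.46, 11.02 and 11.33 in controls, and rose 3.80-fold (1.92 ± 0.21, adjusted p = 0.000393 in limma). For Maff, a small Maf partner of Nrf2, none of the 4 control arrays exceeded background, and treated livers were at least 7.95-fold higher (mean 10.29 in treated livers and 5.72 in controls, adjusted p = 4.24e-05). Tigar, a phosphatase that steers glucose toward the pentose phosphate pathway, was at least 1.26-fold higher by the same bound (mean 7.62 in treated livers and 6.23 in controls, adjusted p = 0.00359).

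The falls among the regulators were Thrsp, Srebf1, Mlxipl and Thrb. Thrsp, a lipogenic protein induced by thyroid hormone, fell 5.03-fold (-2.33 ± 0.32, adjusted p = 0.00119 in limma). Srebf1, a master regulator of fatty acid synthesis, had 9.63, 9.24, 9.03 and 8.51 in treated livers and 11.93, 10.20, 10.97 and 12.60 in controls, and fell 5.02-fold (-2.33 ± 0.47, adjusted p = 0.00962). Mlxipl, the carbohydrate response factor ChREBP, fell 3.61-fold (-1.85 ± 0.22, adjusted p = 0.000565), and Thrb, a thyroid hormone receptor, 1.68-fold (-0.75 ± 0.21, adjusted p = 0.0396), a call that was lost in 5 of the 8 fits with 1 array left out (without thioacetamide replicates 1, 2 and 4 and control replicates 1 and 4). Keap1, the inhibitor of Nrf2, differed by -0.43 ± 0.22 (adjusted p = 0.217).

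Inside the control group, the array with the highest Me1 value was also the highest for several lipogenic genes, picked here after their values were seen. Control replicate 4 had the highest control value of Me1 (12.69), Fasn (13.48), Srebf1 (12.60), Thrsp (14.49) and Scd (15.18), as in 26.1% of all probe sets. It had the lowest control value of Mlxipl (12.49), for which replicate 2 was the highest (13.11). The lowest control was replicate 3 for Me1 (11.03), replicate 2 for Fasn (11.11), Srebf1 (10.20) and Thrsp (13.24), and replicate 1 for Scd (14.36). In treated livers Fasn, Srebf1 and Thrsp lay below all controls, whereas Me1 lay inside the control range. Nfe2l2, Txnrd1 and Nqo1 lay above all controls in treated livers.

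**Figure D5:**
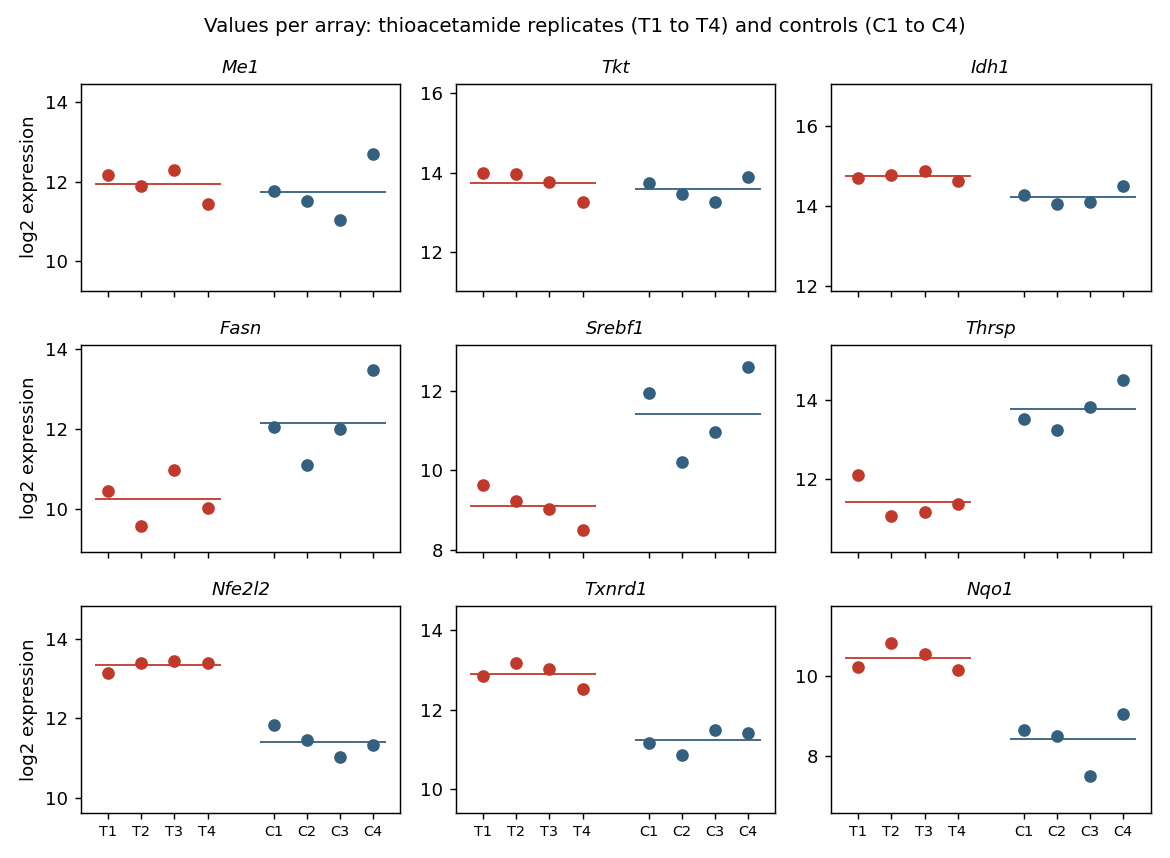
Log2 expression in each thioacetamide array (T1 to T4, red) and control array (C1 to C4, blue) for 3 members (Me1, Tkt, Idh1), 3 lipogenic genes (Fasn, Srebf1, Thrsp) and 3 genes of the Nrf2 response (Nfe2l2, Txnrd1, Nqo1), with group means as lines and an equal axis span in all panels. Me1 and Tkt overlap between the groups, the lipogenic genes lie lower and the Nrf2 response genes higher in treated livers, and C4 is the highest control of Me1, Tkt, Idh1, Fasn, Srebf1, Thrsp and Nqo1.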

How the data were processed

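The authors deposited log2 expression, with 1 value for each probe set on each array, made with RMA per the submitters' processing notes. For RMA settings and array design the sources used here give nothing. The series table and the sample files held identical log2 values (largest difference 0). The random control set was left out, and 11 probe sets had no value in control replicate 4. Names came from the files' gene identifiers and a RefSeq table of GRCr8 (20543 matched by identifier, 31 by accession, 5634 kept the files' symbol). Where a gene had several probe sets, the brightest on average was taken. Thioacetamide minus control was fitted with limma 3.58.1 (lmFit, eBayes, two-sided) in R 4.3.3, adjusted by Benjamini-Hochberg over 26208 probe sets at 0.05, with no block, and the fit was tested on simulated data. A gene that no array of a group measured above background has a bound in place of a fold. Each group held 4 animals per the labels; arrays give no depth, and their number limits the precision. Members, lists and motifs were chosen with earlier results of these data known. Of each list, the 3 largest called differences and the largest of opposite sign were named by rule (the 2 largest where none was called); further list genes, such as Rgn, Rbks, Pgm2, Idh2, Txnrd1, Cbr1, Gsr, Akr1a1, Nfe2l2, Mlxipl, Tigar and Thrb, and those that did not pass were added after their values were seen. Nadk, Tktl1, Dera and Pcx stood in the lists but had no matched probe set, and 1 other listed gene is not reported here.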

Additional observations from a re-analysis of the deposited data

Results flagged for a closer look

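Of 76 groups of 4 arrays checked over 38 probe sets, 6 held 1 array far from the other 3, where chance gives about 1 in 20 groups. None of them was a member. Akr1b8 had 10.34 in control replicate 3, against 8.79 to 8.86 in the other controls, and Cbr1 had 11.64 in the same array, against 11.21 to 11.25. Rgn had 14.68 in control replicate 2, against 14.95 to 14.96. Akr1a1 had 14.48 in thioacetamide replicate 4, against 14.91 to 14.99 in the other treated arrays. Sqle had 12.45 in thioacetamide replicate 3, against 11.52 to 11.66, and Nfe2l2 had 13.13 in thioacetamide replicate 1, against 13.39 to 13.43.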

How the results depend on the processing

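Of the 8 member probe sets, 1 changed. Rpia and Idh1 passed too with the filter on dim probe sets (3 of the 7 it kept, against 30.7% of all 14699) and with the trend and robust variance estimate (3 of 8, against 16.5% of all); with 1 array left out the count was 1 to 2. Pgls kept its direction and call in all 18 alternatives (-1.28 to -0.95). Among these, the series table and the mean of all probe sets could not move its difference, as Pgls has 1 probe set. The Me1 difference turned negative without control replicate 3 (-0.05) and without control replicates 2 and 3 and thioacetamide replicate 4 (-0.12), and was 0.50 without control replicate 4; the cause was not tested. Leaving out those 3 arrays together was chosen after seeing the data. Over all probe sets 3827 changed, with 64.8% of them higher, against 53.5% under cyclic loess and 55.1% of 4139 without those 3 arrays. The count was 2163 with the replicate number as a block, a fit with fewer degrees of freedom that left the member count at 1 and ended the calls of Prps2, Pgm2, Rgn, Idh2, Idh3a, Gsr, Akr1a1 and Thrb (other pentose phosphate and ribose genes: 3 falls and 0 rises), and 2166 to 3924 with 1 array left out (the lowest without thioacetamide replicate 2, and 2466 without replicate 1). For same-numbered rats the labels state nothing shared beyond the number. Their deviations from the group means correlated at 0.246, -0.0983, -0.126 and -0.431, and not every array correlated best with its own number. With 4 arrays per group, these values cannot decide whether such rats shared a factor. The series table gave identical values. Values near the top of the scale (Idh1 and the hepatocyte markers) and near background (Me3 in treated rats, the second Rpe probe set) limit what the arrays can show.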
